A study of Mus musculus with 6 samples.

Results

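Glycolysis splits glucose into pyruvate in the cytosol, and most of its steps are run by families of isoenzymes, separate genes whose proteins catalyse 1 reaction with different kinetics and tissue distribution. Facilitated transporters of the Slc2a family bring glucose in. Pyruvate is then either reduced to lactate, which leaves through Slc16a carriers, or fed to the mitochondria through pyruvate dehydrogenase, which pyruvate dehydrogenase kinases switch off. In embryos of the stage studied here, before the circulation is fully established, glycolysis is a main source of energy, and many of its genes are known targets of the oxygen-regulated HIF factors. The set described here holds 36 genes, named by their place in this pathway, covering 16 steps from glucose entry to the E1 subunits of pyruvate dehydrogenase. It was chosen with earlier results of these data known, so its counts are not a blind comparison. All 36 had at least 1 probe on the array (53 probes, of which 52 were kept), and all 36 were among the 14906 genes tested.

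The samples were heads of mouse embryos at embryonic day 9.5 with the first branchial arch attached. The wild type group and the Arid3b-null group (embryos lacking the DNA-binding protein Arid3b) had 3 samples each. Every sample was RNA pooled from 4 embryos and read on 1 one-colour Agilent array; the labels name no strain, null allele or litter, so a p-value here reflects only how far these pools differed. Levels are log2 of the processed signal relative to the 75th percentile of the same array, so 0 means as bright as the probe at that percentile. Differences are log2, null minus wild type, ± the standard error of the limma fit with n = 3 per group, and a gene is said to have risen or fallen where its p, adjusted over all 14906 genes, was under 0.05. Different probes bind with different strength, so a level is compared between groups and never between isoenzymes; isoenzymes of a step are compared by how much each changed.

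On each array 67.9% to 70.3% of spots were well above background, and none was saturated. Correlations across genes, which are not independent replicates, were 0.965 to 0.975 between the groups and 0.977 or more within them. All 3 probes of Arid3b were lower on every null array than on any wild type array, with differences of -1.19, -1.37 and -2.33, and all stayed well above background in null heads. Whether any of them lies in the deleted part is not known, so this check of the labels is limited. All 10 markers of the embryonic head were detected. Of these Otx2 (0.57) and Alx4 (0.76) rose, Lhx2 (-1.08) and Prrx1 (-0.85) fell, and the others, such as Six3 and Twist1, were not called. Over all tested genes 12.3% rose and 11.2% fell. Lhx2 kept its call under all 16 alternative analyses, while Otx2 lost its call in 7, Prrx1 in 3 and Alx4 in 2. Prrx1 lost its call where the mean of its probes was used. Arrays with the same replicate number shared a slide, wild type always in position 1 and null in position 2, so genotype and position on the slide cannot be told apart.

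Of the 36 glycolytic members, 17 rose in Arid3b-null heads, 2 fell and 17 were not called, where 12.3% of all tested genes rose and 11.2% fell. Of the 17, 12 rose by at least 2-fold, where 5.17% of all genes did. The 17 lay in 12 of the 16 steps. The phosphofructokinase step counts only through Pfkp and the phosphoglycerate mutase step only through Pgam1, and both calls were lost in some alternatives given below. Eno2, the enolase typical of neurons, changed most in the set (log2 difference 4.39 ± 0.13, 21.0-fold). The platelet-type phosphofructokinase Pfkp came next, at 3.18 ± 0.20 on its brighter probe, while its other probe gave -1.95. Pfkp counts among the 17 through the brighter probe only. The transporter Slc2a3 (2.77 ± 0.19) and the brain aldolase Aldoc (2.15 ± 0.22) followed. Those that fell were Hk3 and Ldhb. The null arrays lay wholly above the wild type arrays for 21 members and wholly below for 2, where this held for 20.6% and 21.8% of all genes. The median difference of the 36 members was 0.73 against -0.04 over all genes, and within slides 1, 2 and 3 it was 0.76, 0.74 and 0.68. With the replicate number, which is also the slide, as a block, 19 members rose and 2 fell, where 12.9% of all genes rose. Quantile normalization called 18 members higher and none lower, where it called 1975 of all 14906 genes higher and 1485 lower. The authors' deposited values, which cover 30 of the members, called 16 higher and none lower. Over all 11648 genes in those values, 1789 were called higher and 1267 lower. In bulk RNA from whole heads, fewer cells of a type and less RNA per cell cannot be told apart.

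**Figure D1:**
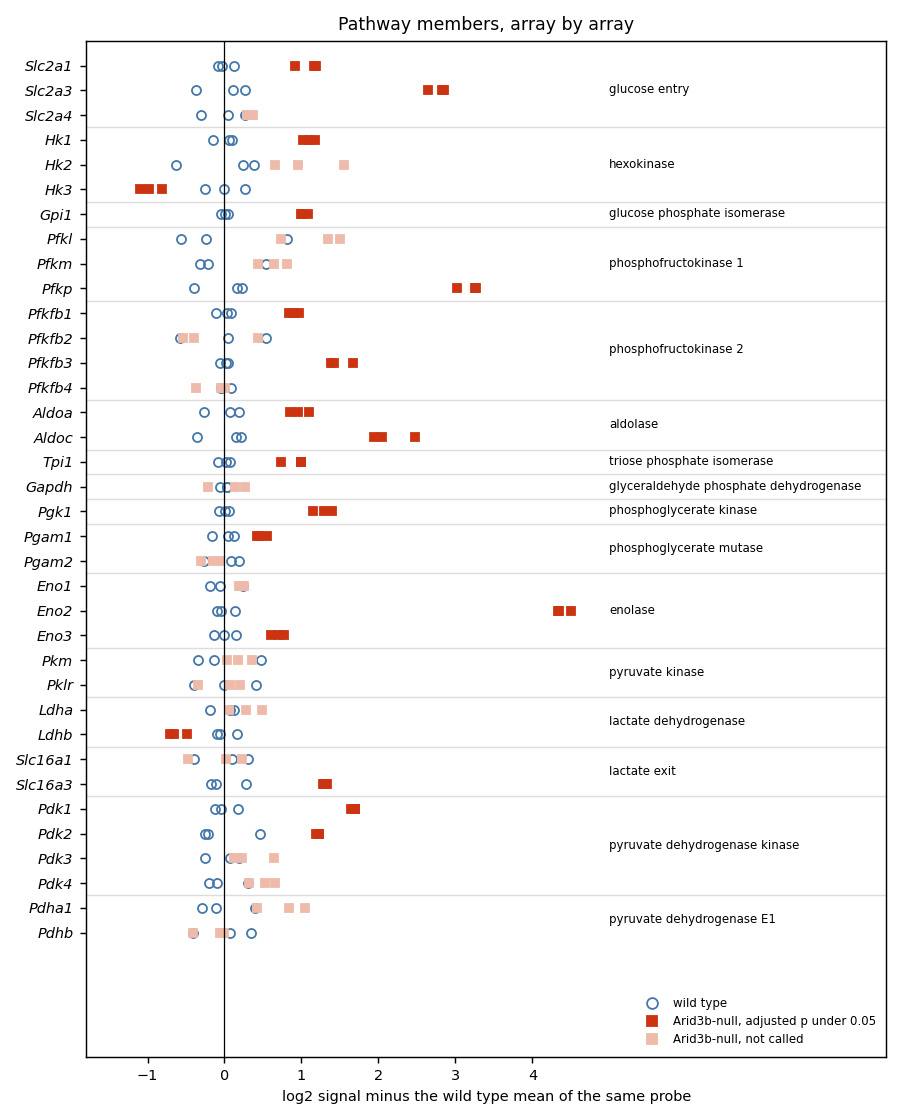
Log2 signal of each of the 36 members on each array, as the difference from the wild type mean of the same probe; open circles are the 3 wild type arrays, squares the 3 Arid3b-null arrays, dark where the adjusted p was under 0.05, and grey lines separate the steps. The null arrays of Eno2 stand 4.39 above wild type on average, while those of Hk3 and Ldhb lie below every wild type array.

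HIF factors bind the core letters ACGTG or GCGTG, so the stretch before each start site was searched for these letters on both strands, in RefSeq promoters of build GRCm38.p6 (250 bases before to 50 after the start). Promoters were listed for 34 of the 36 members, the others being Slc2a3 and Slc2a4. At least 1 match was present for 13 of the 16 matched members that rose and for 14 of the 16 that were not called and for both that fell, compared with 46.7% of all 27025 genes with a promoter; the share of single windows was 43.8% over all 32851 and 72.2% over the 54 of the members. The letters are short and rich in CG, and genes with several start sites have several windows, so a match describes the sequence only. The 250 bases before the start are shown for the member that rose most and has no match in its window (Eno2), for another large rise (Pfkp), for Pgk1, and for Ldha, whose brightest probe was not called. The stretches shown hold 3 matches for Pfkp, 2 for Pgk1 and 5 for Ldha, and the full windows with the 50 bases after the start hold 4, 2 and 7. Another listed promoter of Ldha, not shown, has 2 matches in its window. Matches are in capitals, and CACGTG counts once on each strand.
Eno2 promoter, chr6:124769674-124769923, minus strand: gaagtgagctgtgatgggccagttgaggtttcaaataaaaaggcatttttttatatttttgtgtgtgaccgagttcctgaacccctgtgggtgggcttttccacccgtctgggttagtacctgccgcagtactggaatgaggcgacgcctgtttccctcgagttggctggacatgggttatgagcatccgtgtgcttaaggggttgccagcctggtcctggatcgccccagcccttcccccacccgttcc
Pfkp promoter, chr13:6648772-6649021, minus strand: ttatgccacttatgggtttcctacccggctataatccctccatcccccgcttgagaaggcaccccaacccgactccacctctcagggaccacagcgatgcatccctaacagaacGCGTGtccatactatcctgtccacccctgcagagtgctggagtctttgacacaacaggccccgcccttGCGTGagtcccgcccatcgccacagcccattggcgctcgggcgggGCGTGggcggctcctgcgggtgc
Pgk1 promoter, chrX:106186850-106187099, plus strand: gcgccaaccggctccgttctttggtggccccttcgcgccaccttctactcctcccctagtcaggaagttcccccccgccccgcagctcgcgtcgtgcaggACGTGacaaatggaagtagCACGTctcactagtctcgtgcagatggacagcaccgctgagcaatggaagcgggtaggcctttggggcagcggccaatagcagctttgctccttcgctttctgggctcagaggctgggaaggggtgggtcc
Ldha promoter, chr7:46845554-46845803, plus strand: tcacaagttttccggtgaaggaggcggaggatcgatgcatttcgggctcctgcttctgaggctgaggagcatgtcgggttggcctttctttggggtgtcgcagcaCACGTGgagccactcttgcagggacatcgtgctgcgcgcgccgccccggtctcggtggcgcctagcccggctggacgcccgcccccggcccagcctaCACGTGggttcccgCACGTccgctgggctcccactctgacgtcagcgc

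Transcripts of the glucose transporters Slc2a1 and Slc2a3 rose. Slc2a1, the basal transporter of embryonic tissue and of the blood-brain barrier, was at 3.96, 4.12 and 3.91 in wild type and at 5.19, 5.16 and 4.91 in null heads. Slc2a3, a high-affinity transporter typical of neurons and of the placenta, was at 2.83, 3.31 and 3.48 in wild type and at 6.06, 5.85 and 6.03 in null heads. The groups lay far apart for both, with a difference of 1.09 ± 0.14 (2.13-fold, adjusted p of 0.00353) for Slc2a1 and of 2.77 (6.83-fold, adjusted p of 6.37e-04) for Slc2a3. The within-array log2 ratio of Slc2a3 to Slc2a1 was on average 1.69 higher in null heads. Slc2a4, the insulin-responsive transporter of muscle and fat, was at 0.11 to 0.68 in wild type and 0.71 to 0.78 in null heads, and its difference of 0.33 ± 0.17 was not called (adjusted p of 0.215).

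Hexokinases phosphorylate glucose and so trap it in the cell. Hk1, the constitutive form bound to mitochondria, was at 2.02, 2.23 and 2.27 in wild type and at 3.27, 3.34 and 3.19 in null heads. It rose by 1.09 ± 0.13 (2.14-fold, adjusted p of 0.00297), and its other probe gave 1.25. Hk2, the inducible form, was at 1.91, 2.05 and 1.04 in wild type and at 2.63, 3.22 and 2.32 in null heads. The groups of Hk2 did not overlap and its mean difference was near that of Hk1, at 1.05, but wild type replicate 3 stood low, the standard error was 0.33 and the adjusted p was 0.0597. It passed with the replicate block (0.0136), under quantile normalization (0.0371) and in the authors' deposited values (0.0311). Over 16 alternatives, Hk2 stayed uncalled in 11. Hk3, a form known from white blood cells, moved the other way, from -5.53, -5.77 and -5.25 to -6.33, -6.49 and -6.62, a difference of -0.97 ± 0.17 (1.95-fold lower, adjusted p of 0.00987). On 2 of the 3 null arrays Hk3 still stood well above background, and its call was lost under quantile normalization (0.0597), in the authors' deposited values (0.0561) and with normexp background correction (a difference of -0.07). Of 5 tested markers of macrophages and myeloid cells, Tyrobp (-1.35 ± 0.17) and Mpo (-1.21 ± 0.33) also fell and none rose. Over all genes 11.2% fell and 12.3% rose. The call of Mpo was lost without any 1 null array or wild type replicate 1 or 3. Signal summed over the 7 markers with a probe, as a multiple of the 75th percentile, was 9.18 to 10.9 in wild type. In null heads it was 7.04 to 10.5. All 7 were detected in at least 1 array, and their part in the result for Hk3 was not tested. Gpi1, the only isomerase of the next step, rose from 6.13, 6.09 and 6.05 to 7.08, 7.18 and 7.10 (1.03 ± 0.12, adjusted p of 0.00262), and its 3 probes gave 1.02 to 1.06.

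Phosphofructokinase commits sugar to glycolysis, and its genes, named for liver (Pfkl), muscle (Pfkm) and platelet (Pfkp), differed in size of change. The brighter probe of Pfkp was at -2.66, -2.03 and -2.10 in wild type and at 0.99, 0.76 and 1.01 in null heads, a 9.08-fold difference (adjusted p of 4.65e-04). The other Pfkp probe went the other way, from -3.70, -1.16 and -2.80 to -4.33, -4.25 and -4.92, a difference of -1.95 that was not called as a single probe (adjusted p of 0.0630). The mean of both probes gave 0.62 (adjusted p of 0.262), so the rise of Pfkp rests on its brighter probe. That probe was picked by its mean over the arrays of both groups, so the null values took part in the choice. In wild type the brighter and the other probe averaged -2.26 and -2.55, and the other was the brighter on wild type replicate 2. Where in the transcript either probe lies was not analysed here. Pfkl was at 2.56, 2.89 and 3.93 in wild type and at 4.48, 3.87 and 4.63 in null heads. Pfkm was at 1.67, 1.77 and 2.53 in wild type and at 2.64, 2.43 and 2.81 in null heads. For both, wild type replicate 3 overlapped the null arrays. Their differences of 1.20 ± 0.38 and 0.63 ± 0.25 were not called (adjusted p of 0.0599 for Pfkl and 0.111 for Pfkm). Leaving out wild type replicate 3, the array that overlapped, gave 1.60 and 0.90, and both passed (0.00609 and 0.00788). Without any other single array neither passed (0.0680 to 0.181 for Pfkl and 0.148 to 0.278 for Pfkm). The replicate block also called Pfkl (0.0285). Over 16 alternatives, Pfkl stayed uncalled in 12 and Pfkm in 14.

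The Pfkfb enzymes make and remove the fructose bisphosphate that activates phosphofructokinase. Pfkfb3, whose kinase activity far exceeds its phosphatase activity, rose from 0.76, 0.86 and 0.83 to 2.49, 2.24 and 2.20 (1.49 ± 0.14, 2.81-fold, adjusted p of 0.00124), and its other probe gave 2.07. Pfkfb1, the liver and muscle form, rose from -0.50, -0.63 and -0.44 to 0.31, 0.44 and 0.38 (0.90 ± 0.13, adjusted p of 0.00439). Pfkfb2, the heart form, was at -4.71 to -3.59 in wild type and -4.67 to -3.70 in null heads. Pfkfb4, known from testis and as a gene induced by low oxygen, was at -0.29, -0.29 and -0.16 in wild type and at -0.28, -0.24 and -0.62 in null heads. Neither Pfkfb2 (-0.17 ± 0.35) nor Pfkfb4 (-0.13 ± 0.15) was called, and the groups overlapped in both. The ratio of Pfkfb3 to Pfkfb4 within an array went from 0.99 to 1.15 in wild type to 2.48 to 2.82 in null heads.

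Aldolase and triose phosphate isomerase, which split the sugar and interconvert its parts, were higher in every measured form. Aldoa, the general and muscle aldolase, was at 7.47, 7.59 and 7.12 in wild type and at 8.35, 8.50 and 8.24 in null heads, and rose by 0.97 ± 0.17 (adjusted p of 0.00820). Aldoc, the brain form, was at 0.12, 0.07 and -0.45 in wild type and at 1.96, 2.39 and 1.85 in null heads, and rose by 2.15 (4.45-fold, adjusted p of 0.00166). The ratio of Aldoc to Aldoa rose by 1.18. Tpi1 rose from 5.68, 5.78 and 5.84 to 6.76, 6.51 and 6.77 (0.91 ± 0.14, adjusted p of 0.00536), and its other probe gave 1.22.

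Lower glycolysis held both rising and uncalled steps. Gapdh, the dehydrogenase that is widely used as a reference gene, had 7 probes. Its brightest was at 8.52, 8.61 and 8.62 in wild type and at 8.71, 8.85 and 8.37 in null heads (0.06 ± 0.16, adjusted p of 0.813), and the others gave 0.23 to 0.78 with none called as a single probe. Mouse Gapdh, like Eno1, Ldha and Pgk1, has near-identical copies elsewhere in the genome, and whether these probes also read those copies was not tested. Pgk1, the first step that yields ATP, rose from 6.13, 6.20 and 6.25 to 7.34, 7.48 and 7.59 (1.28 ± 0.13, 2.42-fold, adjusted p of 0.00178). Pgam1, the brain-type mutase, was at 6.32, 6.40 and 6.12 in wild type and at 6.70, 6.83 and 6.72 in null heads, a difference of 0.47 ± 0.14. Its adjusted p of 0.0449 is the weakest call of the set, and it was lost with the replicate block (0.0560), with median centring (0.0677), when dim probes were kept in the fit (0.0892), and without any 1 of the 6 arrays (0.0549 to 0.143). Pgam2, the muscle mutase, was at -3.56 to -3.10 in wild type and -3.59 to -3.34 in null heads (-0.17 ± 0.17, adjusted p of 0.494).

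The 3 enolases showed the widest split within a step. Eno1, the general form, was at 7.39, 7.52 and 7.81 in wild type and at 7.83, 7.81 and 7.77 in null heads, and its difference of 0.23 ± 0.15 was not called (adjusted p of 0.308). Eno2 was at -1.91, -1.96 and -1.73 in wild type and at 2.48, 2.63 and 2.46 in null heads (adjusted p of 4.02e-05), and its difference was 4.004 to 4.52 over all alternatives. Eno3, the muscle form, rose from 3.20, 3.04 and 2.91 to 3.65, 3.83 and 3.76 (0.69 ± 0.14, adjusted p of 0.0139), and its call was lost without null replicate 1, 2 or 3 (0.0505, 0.0578 and 0.0504). The log2 ratio of Eno2 to Eno1 was -9.55 to -9.30 on the wild type arrays and -5.35 to -5.18 on the null arrays, a rise of 4.16. Of 10 neuronal markers, 4 fell (Elavl3, Elavl4, Dcx and Nefm) and none rose, where 11.2% of all genes fell and 12.3% rose. The median difference of the 10 was -0.67. Their summed signal was 14.96 to 21.4 in wild type and 11.6 to 14.8 in null heads, with all 10 detected. The other 6 were not called, and Syt1 (0.15) and Snap25 (0.0047) had differences above 0. The part of neuronal content in the results for Eno2 and Aldoc was not tested. Elavl3 kept its call under all alternatives, while Elavl4, Dcx and Nefm each lost theirs without wild type replicate 1 and without null replicate 1 or 3. Of 8 skeletal muscle markers none was called among the 3 tested, and Ckm, Myod1, Myog and Myf5 did not stand well above background anywhere. Of 9 tested heart muscle markers none was called, and their summed signal was 1.49 to 5.77 in wild type and 2.06 to 2.31 in null heads. Wild type replicate 2 stood high, with Myl4 at 0.93 against -2.70 and -1.86 on the other wild type arrays and -2.59 to -2.39 on the null arrays. Among these 9, the null arrays lay wholly below wild type only for Tnni1 (-1.30) and Myl3 (-1.36), where this held for 21.8% of all genes.

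Pyruvate kinase, the last step of glycolysis, did not pass the test in either form. Pkm, the form of embryonic and most adult tissue, was at 6.39, 6.60 and 7.21 in wild type and at 6.90, 6.76 and 7.09 in null heads, and wild type replicate 3 exceeded every null array. Its difference was 0.19 ± 0.23, with an adjusted p of 0.601; the probe was not assigned to a splice form. Pklr, of liver and red cells, was at -4.46 to -3.66 in wild type and -4.42 to -3.87 in null heads (-0.03 ± 0.24, adjusted p of 0.949). Erythroid markers, which bear on Pklr, were high in both groups. None of 10 was higher and only Klf1 was lower (-1.04 ± 0.24, a call lost without null replicate 1 or 3). Over all genes 12.3% rose and 11.2% fell. The summed signal of the erythroid markers was 634 to 858 in wild type and 489 to 1005 in null heads, with all 10 detected.

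Of the lactate dehydrogenases, Ldhb fell and Ldha was not called on its brightest probe. Ldha, whose subunits favour lactate production, was at 7.96, 7.92 and 7.65 in wild type and at 8.13, 8.34 and 7.90 in null heads on its brightest probe, a difference of 0.28 ± 0.17 that was not called (adjusted p of 0.269). Its other probes gave 0.56 and 0.81, and the mean of all 3 was 0.55 and passed (adjusted p of 0.0289). Ldhb, whose subunits favour lactate use, fell from 4.59, 4.38 and 4.33 to 3.78, 3.73 and 3.94 (-0.62 ± 0.14, 1.53-fold lower, adjusted p of 0.0208). The call of Ldhb was lost under quantile normalization (0.0739), in the authors' deposited values (0.0955), and without wild type replicate 1 or 2 or null replicate 1 or 2 (0.0644, 0.0570, 0.0900 and 0.0789). The ratio of Ldha to Ldhb was 3.32 to 3.54 on wild type arrays and 3.97 to 4.61 on null arrays.

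Of the lactate carriers, Slc16a3, the low-affinity exporter of glycolytic tissue, rose and Slc16a1 was not called. Slc16a3 was at 4.58, 4.97 and 4.53 in wild type and at 6.03, 6.01 and 5.98 in null heads (1.31 ± 0.16, 2.48-fold, adjusted p of 0.00284), and its other probe gave 1.29. Slc16a1, the carrier found in most tissues, was at -4.21, -3.52 and -3.72 in wild type and at -4.29, -3.58 and -3.80 in null heads, with a difference of -0.07 ± 0.25. Bsg, the chaperone that both carriers need to reach the membrane, rose by 1.16 ± 0.24 (adjusted p of 0.0151), a call lost without null replicate 1 or 3 (0.0613 and 0.0577).

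At the entry to the mitochondrion, kinases that inactivate pyruvate dehydrogenase rose. Pdk1 was at -0.88, -0.81 and -0.58 in wild type and at 0.89, 0.93 and 0.94 in null heads (1.68 ± 0.14, 3.20-fold, adjusted p of 9.16e-04). Pdk2, the most widely expressed of the kinases, was at -2.24, -2.20 and -1.53 in wild type and at -0.81, -0.77 and -0.76 in null heads (1.21 ± 0.21, 2.32-fold, adjusted p of 0.00839). Pdk3 was at 0.28 to 0.73 in wild type and 0.67 to 1.19 in null heads (0.34 ± 0.19, adjusted p of 0.254). Pdk4, a kinase of fasting and fatty acid use, was at -5.84 to -5.33 in wild type, well above background on 2 of 3 arrays, and -5.31 to -4.98 in null heads (0.50 ± 0.18, adjusted p of 0.0866). Their substrate is the E1 enzyme of Pdha1 and Pdhb. Pdha1 was at 0.34, 0.53 and 1.02 in wild type and at 1.47, 1.06 and 1.68 in null heads, and its difference of 0.77 ± 0.24 just missed the threshold (adjusted p of 0.0552). It passed with the replicate block (0.0293) and without wild type replicate 3 (0.0151). Over 16 alternatives, Pdha1 stayed uncalled in 12. Pdhb was at 3.00, 2.73 and 2.24 in wild type and at 2.65, 2.59 and 2.25 in null heads, with overlapping groups (-0.16 ± 0.22).

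Unequal change within a step was examined as the log2 ratio of both members on the same array, in 30 pairs of members of 1 step. In 23 pairs the 3 null arrays lay apart from the 3 wild type arrays, where 20.6% and 21.8% of single genes lay wholly above or below. The pairs reuse the same members and ratios of other genes were not computed, so the count describes these pairs only. A two-sided exact permutation test of 3 arrays against 3 cannot give a p below 0.1, so no pair could pass 0.05, and the smallest value adjusted over the 30 pairs was 0.130. The ratio moved most for Eno2 over Eno1 (4.16), Eno2 over Eno3 (3.70), Pfkp over Pfkm (2.55, on the brighter Pfkp probe) and Slc2a3 over Slc2a4 (2.45). The pairs that overlapped were Hk1 and Hk2 (0.04), Pfkfb4 and Pfkfb2 (0.03), Pfkfb1 and Pfkfb2 (1.07), Pkm and Pklr (0.21), Pdk4 and Pdk3 (0.16), Pdk2 and Pdk4 (0.71), and Pdha1 and Pdhb (0.93).

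**Figure D2:**
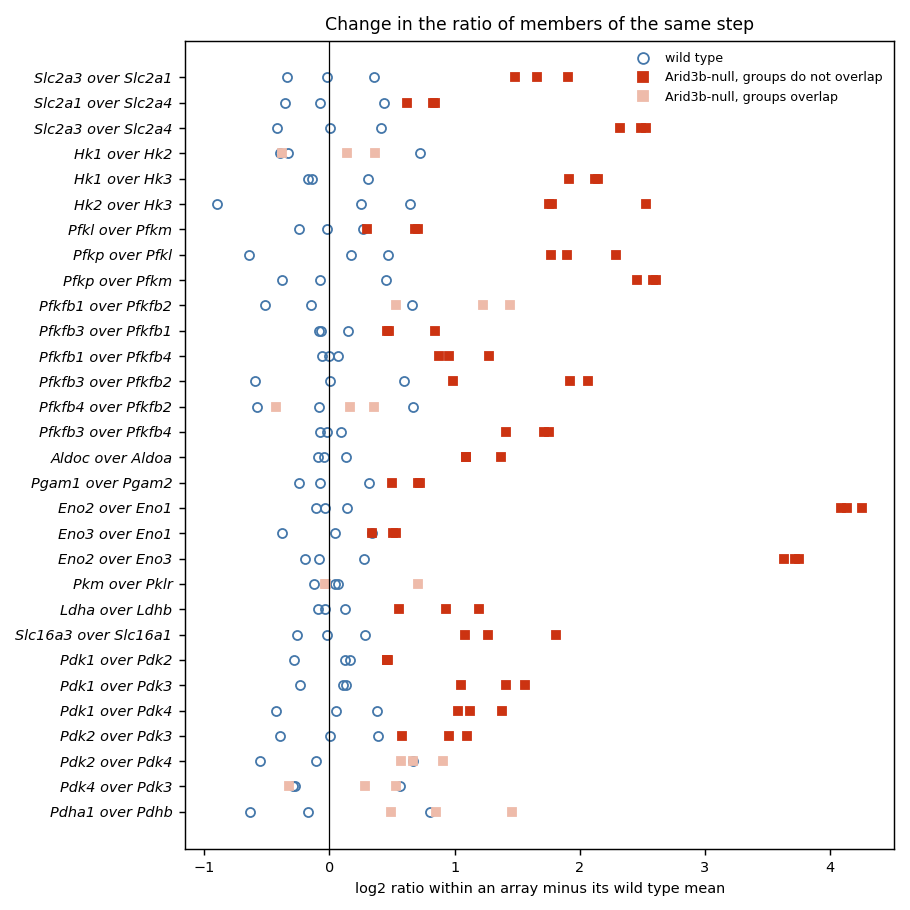
Log2 ratio of members of the same step on each array, as the difference from the wild type mean of that ratio, named with the member that changed more upward first; circles are wild type and squares Arid3b-null arrays, dark where the groups did not overlap. The ratio of Eno2 to Eno1 stands 4.16 above wild type on average, and 23 of 30 ratios have groups that lie apart.

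Of the 9 members with more than 1 kept probe, 15 of 16 other probes had the sign of the brightest, the exception being Pfkp. In 6 of the 9 the brightest probe had the smallest difference, as for Gapdh (0.06 at a wild type level of 8.58, against 0.71 at 4.002) and Ldha (0.28 at 7.84, against 0.81 at 2.89). Whether bright probes understate change on these arrays was not tested. Aldoa, at a wild type mean of 7.39, rose by 0.97.

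**Figure D3:**
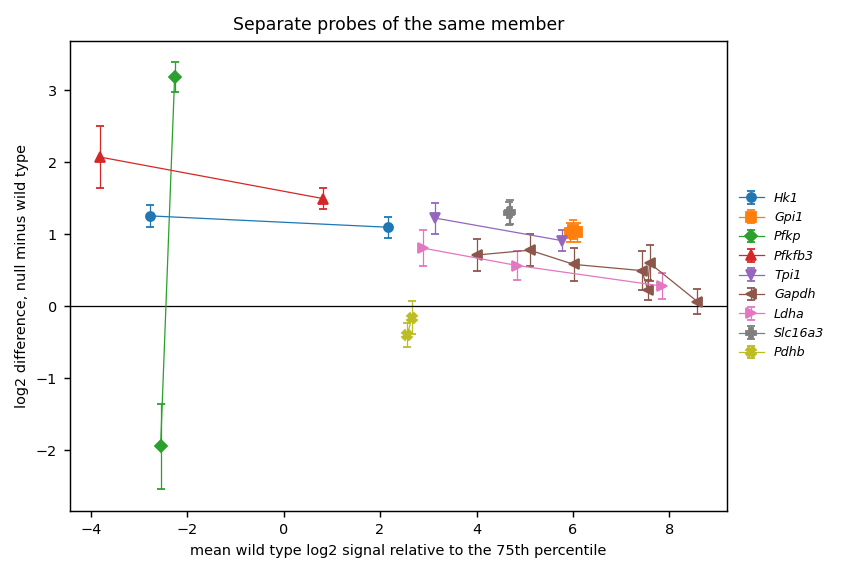
Log2 difference, null minus wild type, of every kept probe of the 9 members with more than 1, against its mean wild type log2 signal relative to the 75th percentile; error bars are the standard error of the limma fit and lines join probes of the same gene. The 2 probes of Pfkp lie at 3.18 and -1.95, and the 7 of Gapdh run from 0.06 to 0.78.

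Pathways that branch from or follow glycolysis were read from lists of other genes, beside the same 12.3% of genes higher and 11.2% lower. Of 8 tested sugar and lactate carriers outside the set, 3 rose and none fell: Slc2a8, an intracellular hexose transporter (1.32 ± 0.16), Bsg and Slc2a13. Other enzymes of the same steps or close to them went both ways. Tigar, a phosphatase that lowers the activator of phosphofructokinase, fell by 1.17 ± 0.14 (adjusted p of 0.00262). Ldhd, the mitochondrial dehydrogenase of D-lactate, did not stand well above background on any wild type array and passed the filter only through the null arrays. Its mean null signal was 2.85-fold above the mean of the dimmest spots called well above background on the wild type arrays. The limma adjusted p of Ldhd (0.00305, lost with normexp) used wild type values below that mean, so it does not measure the size of a rise. Bpgm also fell. Hkdc1 was called lower too, but it stood well above background on only 1 of the 3 null arrays, and its call was lost in 4 of 15 alternatives.

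Genes of the mitochondrial and reductive routes were mostly not called. Of 16 tricarboxylic acid cycle genes none rose and 2 fell, Sdhd (-0.54 ± 0.13) and the citrate synthase gene Cs (-0.46 ± 0.13), with a median of -0.28. Of 9 genes of the shuttles that carry cytosolic reducing power into mitochondria, Gpd1, the cytosolic glycerol phosphate dehydrogenase, fell by 2.01 ± 0.16 (4.04-fold lower, adjusted p of 9.16e-04) and the aspartate carrier gene Slc25a12 by 1.21 ± 0.13, and none rose. Of 9 pentose phosphate genes 1 rose and 3 fell, with Taldo1 at -0.74 ± 0.18 and Pgd at -0.73 ± 0.20. Of 8 genes of pyruvate entry and the rest of the dehydrogenase complex, Pcx rose (0.54 ± 0.14) and Pdhx (-0.72 ± 0.16) and Pdp2, a phosphatase that opposes the kinases, fell. Of 3 tested genes of gluconeogenesis, Pck2, the mitochondrial carboxykinase, rose by 1.45 ± 0.17, G6pc3 rose and Fbp1 fell by 1.68 ± 0.19. Slc2a8, Tigar, Bpgm, Gpd1, Slc25a12, Pck2 and Fbp1 kept their call under all alternatives, and every other gene called in these lists lost it under at least 1. Cs and Sdhd lost theirs under quantile normalization (0.222 and 0.0659) and without any 1 array other than wild type replicate 3. No tricarboxylic acid cycle gene was called higher under any scaling, and in the authors' deposited values, which cover 6 of the 16, none was called in either direction. Of the 7 pentose phosphate genes in those values, 1 was called higher (G6pd2) and none lower. The pentose phosphate gene that rose in the first count was another, H6pd, which lost its call in the deposited values. A difference between these lists and the glycolytic set was not tested.

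**Figure D4:**
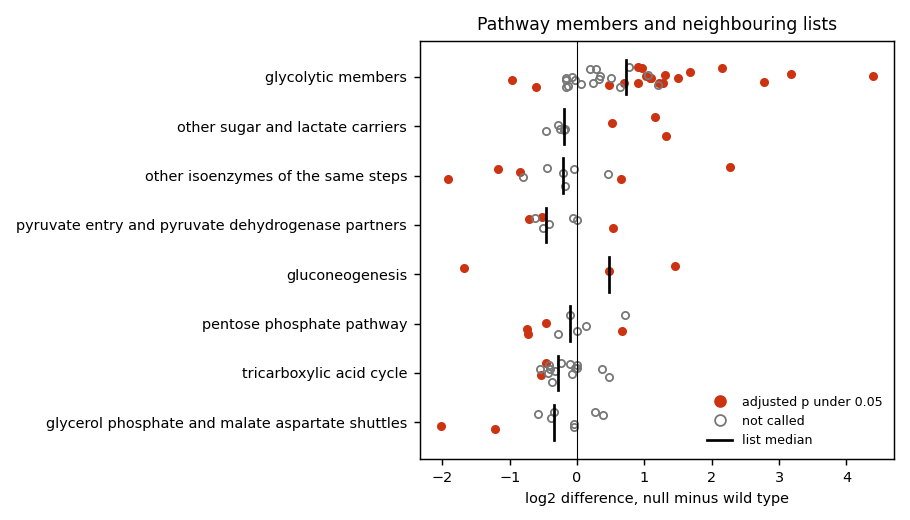
Log2 difference, null minus wild type, of every tested gene of the glycolytic set and of 7 neighbouring lists, filled where the adjusted p was under 0.05, with a bar at the list median; vertical scatter within a list carries no value. The median of the glycolytic set is 0.73 and that of the tricarboxylic acid cycle -0.28.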

How the data were processed

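The scanner files hold 1 intensity per spot, background-subtracted and detrended by Agilent Feature Extraction 10.7.3.1 (processed signal), and raw median intensities, per the file headers; the value table holds log2 values deposited by the authors, with the method behind it not given in the sources used here. Control spots and outlier spots (84 to 156 per array) were left out, log2 processed signals were set relative to each array's 75th percentile, and spots of a probe were averaged. Of 39429 probes, 26424 were named through RefSeq accessions. A probe was kept if all 3 arrays of either group were well above background and at least 5 arrays gave a value. The brightest probe, by its mean over the arrays of both groups, represented its gene. The test was limma 3.58.1 (R 4.3.3), with Benjamini-Hochberg adjustment. On simulated data with 14898 genes, 20 of 50 changes of 2-fold and 41 of 50 of 4-fold were recovered, with 1 false call. Only 50 genes per fold size were changed there, and the noise was independent, with no shared slide or pool effect. The data themselves gave 3506 called genes, so these counts do not measure the power or error rate of the real comparison.

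The members, lists and tests were chosen with earlier results of these data known. All 36 members are described; of neighbouring lists, the 2 smallest p values were to be named, and further called genes were named after their values were seen. Replicate numbers mark shared slides and scans; deviations of same-numbered arrays from their group means correlated at -0.20, 0.15 and 0.42, which does not pair the pools. Normexp used median signals with an offset of 50. Other alternatives were normalizations, filters, probe rules, variance models, array weights, the replicate block and leaving out each array.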

Additional observations from a re-analysis of the deposited data

How the results depend on the processing

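Of the 19 members called, 14 kept their direction and call under every alternative and on every other probe: Slc2a1, Slc2a3, Hk1, Gpi1, Pfkfb1, Pfkfb3, Aldoa, Aldoc, Tpi1, Pgk1, Eno2, Slc16a3, Pdk1 and Pdk2 (the deposited value table holds no value for Aldoa). The exceptions are Hk3, Pfkp, Pgam1, Eno3 and Ldhb, given above. The count of members called was 19 and ran from 16 to 21 when 1 array was left out. It was 21 with the replicate block and 29 with array weights, which also called 9273 genes over the whole array instead of 3506. The count over the whole array was 2270 without the filter on dim probes, 3689 with the replicate block, and 1516 to 5199 when 1 array was left out, the lowest without null replicate 1 and the highest without wild type replicate 3. Ratios that lay apart numbered 17 of 24 in the deposited value table, 20 of 25 where all 6 arrays were above background, and 22 to 26 of 30 otherwise. With the replicate block the count is of ratios with 1 direction on all 3 slides (26). Leaving out an array, or counting directions by slide, could only keep or raise the original count of 23, so those counts are no check of it. Array weights were estimated from 6 arrays, and the cause of the larger counts was not tested.

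Signs turned only where the difference was small, apart from the other probe of Pfkp (-1.95). When 1 array was left out, Pfkfb2 ran from -0.47 to 0.10 (turned without wild type replicate 1 or null replicate 3), Gapdh from -0.040 to 0.20 (null replicate 2), Pdhb from -0.37 to 0.011 (wild type replicate 1), Slc16a1 from -0.27 to 0.13 (wild type replicate 2 or null replicate 1) and Pklr from -0.23 to 0.18 (either replicate 3). Pklr was also 0.0057 under quantile normalization, 0.0084 in the authors' deposited values, 0.0031 with normexp and 0.16 with array weights. The number of arrays and, for Hk3 and Pdk4, signals near background limit these values.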
